A study of Rattus norvegicus with 24 samples.

Results

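Transcript ratios of 3 fibrillar collagen genes and 2 small proteoglycan genes were followed in rat kidney: Col1a1, Col2a1, Col3a1, Dcn (decorin) and Bgn (biglycan). The members were taken by gene symbol from the array annotation, and make up 5 of the 1313 named genes with a value. Each is listed at 2 probe IDs, of which 1 holds values, so 5 of the 1561 probes with a value are described. Col1a1, Col3a1, Dcn and Bgn were measured on all 24 arrays and Col2a1 on 21 of them. None of these genes lies on chromosome 13 in the RefSeq table of assembly GRCr8: Col1a1 is on chromosome 10, Col2a1 and Dcn on 7, Col3a1 on 9 and Bgn on X.

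Each array was hybridised with the RNA of 2 kidney samples, one in each dye channel. The conditions compared were strain 13 on HS, strain 13 on LS, strain SS on HS and strain SS on LS, all after 2 weeks, and HS and LS are read as high-salt and low-salt diets from what is known of the study. SS is the salt-sensitive Dahl rat, and strain 13 is the same rat with its chromosome 13 replaced by that of another strain, so both strains share the rest of the SS genome. Sex, age and salt content are not given in the labels used here, which say kidney where the series title says renal medulla. Because every value is a ratio, the tissue could not be checked by the level of its markers.

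The 4 comparisons form a ring: HS over LS within strain 13, HS over LS within SS, 13 over SS on HS, and 13 over SS on LS. Each has 3 replicates, and each replicate is a pair of RNAs put on a forward array and on an array with the dyes exchanged, averaged to 1 value. Values are log ratios whose base is not given in the sources used here, so they are printed as log ratios with no fold, as mean ± SD with n = 3. A positive value means higher on HS, or higher in 13, and this direction is likely rather than certain: the titles of the strain arrays put 13 in the Cy5 channel on forward arrays and SS there on dye-swap arrays. Only 1 diet array, a dye-swap one of SS, has channel names in its title, with LS in Cy5, and the other diet titles only set LS before HS. If it were wrong, every sign here would turn at once. Nothing in the labels ties a replicate to its own animal, and the p-values therefore cover only the spread among these RNA pairs, part or all of which can be technical.

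Fibrillar collagens are long triple-helical proteins that bundle into the tension-bearing fibres of connective tissue. Col1a1 encodes the main chain of type I collagen, Col3a1 the chain of type III collagen, which is mixed with type I in soft organs and in scars, and Col2a1 the chain of type II collagen, best known from cartilage. Decorin and biglycan are small leucine-rich proteoglycans with related protein cores. Decorin binds collagen fibrils and limits their thickness, and both proteoglycans bind the growth factor TGF-beta. In the kidney type I and type III collagen and both proteoglycans are made mostly by interstitial fibroblasts, by perivascular cells and by cells of the vessel wall. The build-up of such matrix is the hallmark of fibrosis.

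In SS rats the collagen transcripts were higher on HS than on LS, and the proteoglycans did not pass the test. Col1a1 had log ratios of 0.46, 1.245 and 1.135 in replicates 1 to 3 (0.95 ± 0.43). All 6 arrays were above 0, between 0.26 and 1.31, and replicate 1 stood well below the others. Col3a1 had 0.445, 1.00 and 1.015 (0.82 ± 0.325), again with all 6 arrays above 0 and with the lowest value in replicate 1. Col2a1 had 0.53, 0.81 and 0.65 (0.66 ± 0.14), where replicate 1 rests on its forward array alone. The 3 genes passed limma's test with the same adjusted p = 0.0105, and 95% intervals of 0.61 to 1.28 for Col1a1, 0.45 to 0.88 for Col2a1 and 0.57 to 1.07 for Col3a1. Among the 1310 probes tested, 2.82% passed in either direction, 1.83% as higher and 0.992% as lower. By p, Col3a1 ranked 1, Col2a1 2 and Col1a1 5 of them.

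Decorin had log ratios of -0.005, 0.245 and 0.435 in SS (0.225 ± 0.22, limma adjusted p = 0.238). Biglycan had 0.02, 0.435 and 0.235 (0.23 ± 0.21, limma adjusted p = 0.233). In both genes replicate 1 was at about 0 and the other replicates were above it, and 5 of 6 arrays were above 0. Their upper 95% bounds of 0.441 and 0.445 lay below the lower bound of each collagen, the closest being that of Col2a1 at 0.447, and the difference between genes was not tested. The median of the 5 members was 0.66, beside -0.01 over all probes tested.

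The collagen calls in SS were kept without replicate 1 and lost without replicate 2 or replicate 3. Without replicate 1 of this comparison the means were 1.19 for Col1a1, 0.73 for Col2a1 and 1.01 for Col3a1, with limma adjusted p of 0.00268, 0.0116 and 0.0026. Without replicate 2 the adjusted p was 0.0955 for Col1a1 and 0.0886 for the other two collagens, and without replicate 3 it was 0.0802 for each of the 3 genes, with means that stayed between 0.59 and 0.85. Fitted alone, the 3 values of this comparison gave an adjusted p of 0.206 for Col2a1 and 0.233 for Col1a1 and Col3a1.

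**Figure D1:**
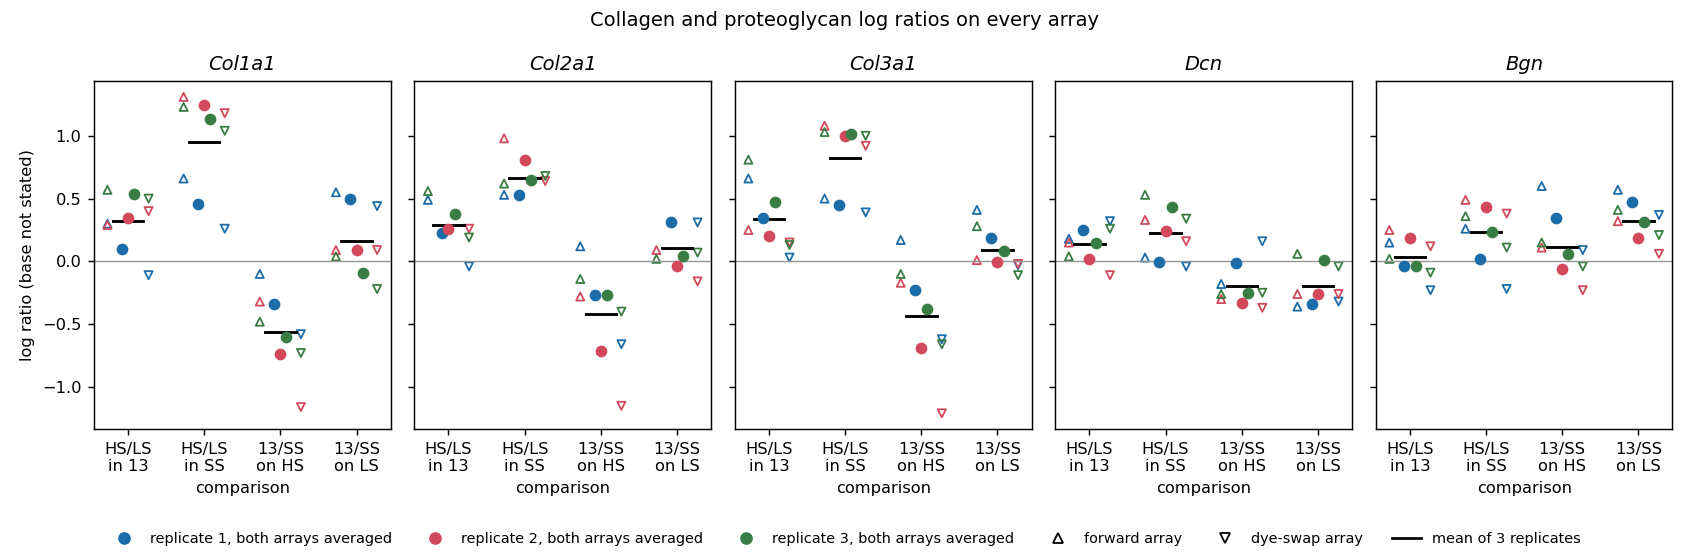
Log ratio (vertical axis, base not stated) of each gene in the 4 comparisons (horizontal axis), with triangles for single arrays, filled circles for the 3 replicates after averaging both dye orientations, and bars for their mean. The 3 collagens are highest for HS over LS in SS (means of 0.95, 0.66 and 0.82) and lowest for 13 over SS on HS (-0.56, -0.42 and -0.43), and decorin and biglycan stay between -0.20 and 0.32 in every mean.

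In strain 13 the same diet comparison gave smaller collagen ratios, none past the test. Col1a1 had 0.095, 0.345 and 0.535 (0.325 ± 0.22), Col2a1 0.225, 0.26 and 0.375 (0.29 ± 0.08) and Col3a1 0.345, 0.20 and 0.47 (0.34 ± 0.135). Every replicate was above 0, though Col1a1 and Col2a1 each had 1 array below it, and replicate 2 of Col2a1 rests on its dye-swap array alone. The limma adjusted p was 0.561 for Col1a1 and 0.417 for Col2a1 and Col3a1. The 95% intervals of Col3a1 (0.08 to 0.59) and Col2a1 (0.07 to 0.50), which are not adjusted for the number of probes, do not reach 0, and that of Col1a1 (-0.01 to 0.66) does. Decorin had 0.25, 0.02 and 0.15 (0.14 ± 0.115, limma adjusted p = 0.69), and biglycan -0.04, 0.185 and -0.035 (0.04 ± 0.13, limma adjusted p = 0.944). The median of the 5 members was 0.29, beside 0.01 over all probes. By limma 0 of 1287 probes passed in this comparison (0%), with 119 below an unadjusted p of 0.05, so the absence of calls here is common to all genes.

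Between the strains on HS, the collagens had lower values in 13 than in SS, and Col2a1 passed the test. Its log ratios of 13 over SS were -0.27, -0.715 and -0.27 (-0.42 ± 0.26, limma adjusted p = 0.0328, 95% interval -0.635 to -0.20). Col1a1 had -0.34, -0.74 and -0.605 (-0.56 ± 0.20), and Col3a1 had -0.225, -0.69 and -0.38 (-0.43 ± 0.24). Both narrowly missed the threshold of 0.05, with limma adjusted p of 0.0528 and 0.0505, beside a background of 6% of 1350 probes called (3.63% as higher and 2.37% as lower). That background is 81 probes, and 40 with the replicate number as a block. The 3 intervals overlap, so the call of Col2a1 does not set it apart from the others. All replicates of the 3 genes were below 0, with replicate 2 the lowest in each.

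This comparison depended on the dye orientation. The forward arrays averaged -0.30 for Col1a1, -0.10 for Col2a1 and -0.03 for Col3a1, while the dye-swap arrays averaged -0.82, -0.74 and -0.83. With forward arrays alone Col2a1 had a limma adjusted p = 0.592, and with dye-swap arrays alone 0.00144. Its call was also lost without any 1 of the 3 replicates of this comparison (limma adjusted p from 0.0753 to 0.158), with the replicate number as a block (0.0594), with all arrays scaled to one spread (0.0654), without the strain 13 diet array that has no replicate number (0.0517) and with this comparison fitted alone (0.127). Col1a1 and Col3a1 gained a call in 6 and 8 of 20 alternatives, among them probes measured in all 12 pairs (limma adjusted p of 0.0306 and 0.0288) and pairs with both orientations only (0.0277 and 0.0266). In both of these settings the means of the genes stayed at -0.56 and -0.43. Only the other probes in the fit changed, so these calls add no evidence from the genes themselves. Decorin had -0.01, -0.335 and -0.255 (-0.20 ± 0.17, limma adjusted p = 0.254), and biglycan 0.345, -0.06 and 0.055 (0.11 ± 0.21, limma adjusted p = 0.527). The median of the 5 members was -0.42, against 0.02 over all probes.

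On LS the collagens showed no strain difference larger than the spread between replicates. Col1a1 had 0.495, 0.09 and -0.09 (0.165 ± 0.30), Col2a1 0.31, -0.035 and 0.045 (0.11 ± 0.18) and Col3a1 0.19, -0.005 and 0.085 (0.09 ± 0.10), with limma adjusted p between 0.541 and 0.669. In each of them replicate 1 was the highest. Its forward array held 726 values, against 1099 on the next sparsest array of this comparison, and gave no value for Col2a1. Without that array no call of a member changed.

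The proteoglycans parted on LS. Biglycan had 0.47, 0.19 and 0.31 (0.32 ± 0.14), and all 6 arrays were above 0, between 0.06 and 0.57. Decorin had -0.34, -0.26 and 0.01 (-0.20 ± 0.18), with 5 of 6 arrays below 0. Neither passed, with limma adjusted p of 0.115 for biglycan (unadjusted p = 0.00681) and 0.269 for decorin. Biglycan passed in 3 of 20 alternatives, on forward arrays alone (limma adjusted p = 0.0363), with the 24 arrays as observations and the RNA pair as a random block (0.0206) and with a dye term (0.0125). The 95% intervals, 0.11 to 0.54 for biglycan and -0.41 to 0.02 for decorin, do not overlap, and the difference between both genes was not tested. By limma 0 of 1229 probes passed on LS (0%), and 268 were below an unadjusted p of 0.05.

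The forward and dye-swap arrays of one RNA pair gave different values for most members. Forward minus dye-swap was above 0 in all 12 pairs for Col3a1 (mean 0.41 ± 0.33 SD) and for biglycan (0.26 ± 0.14), in 10 of 12 pairs for Col1a1 (0.25 ± 0.25) and in 7 of 9 for Col2a1 (0.37 ± 0.32). Decorin had 6 of 12 pairs above 0 (0.01 ± 0.175). Over the 548 probes measured on all arrays, the median size of this difference was 0.17. A shift of equal size on both arrays cancels in their average and stays in a pair measured on 1 array. The difference was not constant, running from 0.03 to 1.04 over the pairs of Col3a1, and whether the shift cancelled fully was not tested. Among the members, pairs with 1 array concern Col2a1 in replicate 2 of the strain 13 diet comparison, replicate 1 of the SS diet comparison and replicate 1 of the strain comparison on LS. With only pairs measured in both orientations, Col2a1 kept its call in the SS diet comparison (0.73, limma adjusted p = 0.00501). On HS all its pairs had both orientations, so this setting removed none of its values there and cannot show the effect of the shift.

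**Figure D2:**
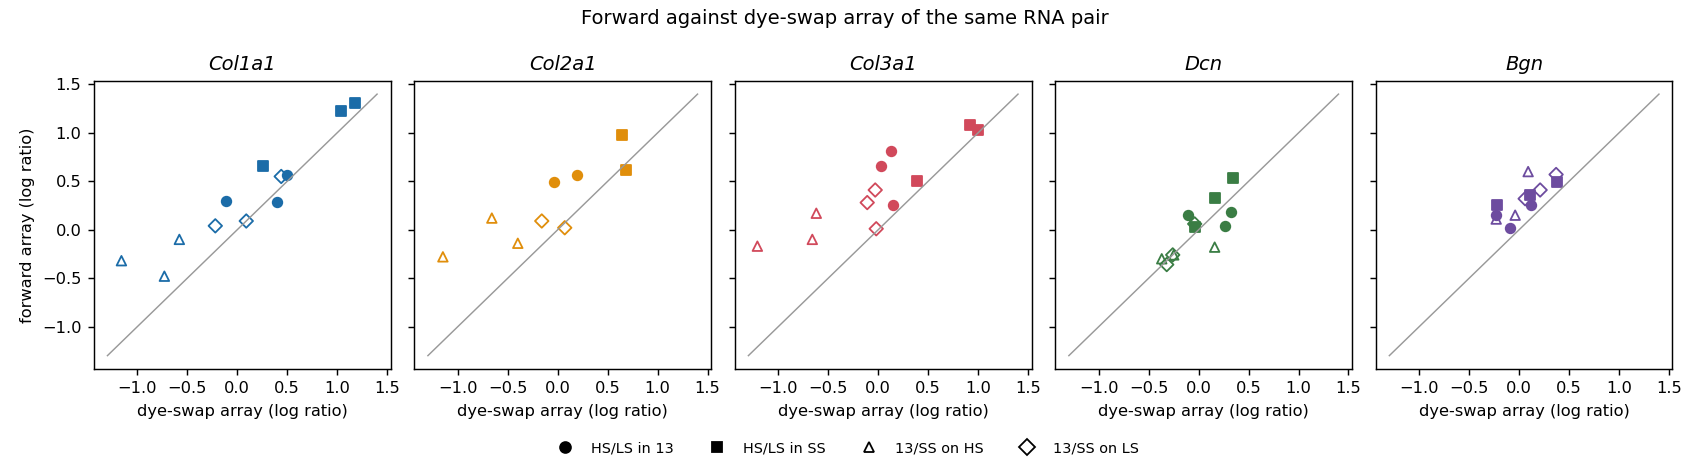
Forward array against dye-swap array of the same RNA pair for each gene (both axes log ratios, base not stated), with filled symbols for the diet comparisons, open symbols for the strain comparisons and a line of equal values. Col3a1 and biglycan lie above the line in all 12 pairs, and decorin lies on both sides of it.

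The diet response in 13 minus that in SS can be read from the diet arrays and, separately, from the strain arrays on HS and LS. For Col1a1 the diet response was 0.325 ± 0.22 in 13, against 0.95 ± 0.43 in SS, a difference of -0.62 ± 0.27 on the diet arrays. The strain arrays gave -0.56 ± 0.20 on HS, against 0.165 ± 0.30 on LS, a difference of -0.73 ± 0.18. For Col2a1 these differences were -0.38 ± 0.15 and -0.525 ± 0.19, and for Col3a1 -0.48 ± 0.35 and -0.52 ± 0.14. The mean of both estimates was below 0 in all 3 replicates of each collagen, with means over the replicates of -0.67 ± 0.17 for Col1a1, -0.45 ± 0.16 for Col2a1 and -0.50 ± 0.24 for Col3a1. None passed the test of the difference, with limma adjusted p of 0.0593, 0.0569 and 0.0593, where 0.43% of 1164 probes did (5 probes, and 8 with the replicate number as a block).

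Biglycan gave -0.19 ± 0.12 on the diet arrays and -0.21 ± 0.07 on the strain arrays (mean of both -0.20, limma adjusted p = 0.339), below 0 in 3 of 3 replicates. Decorin gave 0.29, -0.15 and -0.275 in the 3 replicates (-0.04 ± 0.30, limma adjusted p = 0.852), with no common sign. Both estimates may share RNAs, as the channel names show for SS in replicate 3, and the fit takes them as independent, so these p-values may be too low. The collagen values lay close to the threshold, and they passed under some settings and not under others. With probes measured in all 12 pairs the limma adjusted p was 0.0299 for Col1a1 and Col2a1 and 0.0302 for Col3a1, and with the replicate number as a block it was 0.111, 0.0863 and 0.0941. Both settings left the collagen differences themselves unchanged, at -0.67, -0.45 and -0.50. Over all alternatives tried it ran from 0.000416 to 0.444 for Col1a1, from 0.0147 to 0.512 for Col2a1 and from 0.00312 to 0.451 for Col3a1.

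Part of the title text of the strain arrays may mark a batch, and both diets share 1 such mark, in replicate 3. Within it the strain-array difference was -0.515 for Col1a1, -0.315 for Col2a1, -0.465 for Col3a1, -0.265 for decorin and -0.255 for biglycan. In the other replicates the mark differs between HS and LS, so there batch and diet cannot be told apart for this estimate. The diet arrays, with 1 exception, carry no such text.

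**Figure D3:**
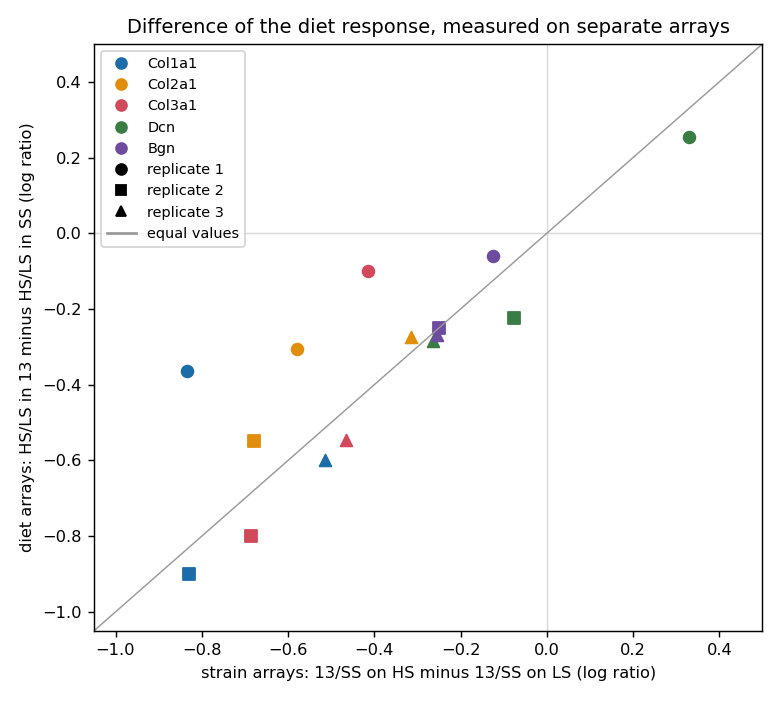
Difference of the diet response between strains from the diet arrays (vertical axis) against the same quantity from the strain arrays (horizontal axis), both as log ratios, for each gene and replicate, with a line of equal values. In replicates 2 and 3 the estimates of a gene differ by at most 0.15, and in replicate 1 the collagens differ by 0.275 to 0.47.

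Least squares over the 4 comparison means placed each gene's level in the 4 conditions on 1 scale, relative to SS on LS. The order was the same for the 3 collagens, highest in SS on HS, then 13 on HS, then 13 on LS, then SS on LS. For Col1a1 the level was 0.44 ± 0.15 (SE) in 13 on HS, 0.14 ± 0.13 in 13 on LS and 0.97 ± 0.13 in SS on HS. For Col3a1 it was 0.41 ± 0.12, 0.08 ± 0.10 and 0.83 ± 0.10 in these conditions, and for Col2a1 0.32 ± 0.10, 0.07 ± 0.09 and 0.70 ± 0.09. The step between 13 on HS and SS on HS (-0.535 ± 0.13 for Col1a1) and that between 13 on HS and 13 on LS (0.30 ± 0.13) were larger than 2 SE in each collagen. The step between 13 on LS and SS on LS was not.

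The proteoglycans had other orders. Decorin was highest in SS on HS at 0.205 ± 0.09 (SE), with -0.02 ± 0.10 in 13 on HS and -0.18 ± 0.09 in 13 on LS. Its neighbouring pairs 13 on HS with SS on LS, and 13 on HS with 13 on LS, did not differ by more than 2 SE. Biglycan had 0.35 ± 0.10 in 13 on HS, 0.32 ± 0.085 in 13 on LS and 0.23 ± 0.085 in SS on HS. Those 3 conditions did not differ from each other by more than 2 SE, and each was above SS on LS by more than that. These SE take the 4 comparisons as independent.

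**Figure D4:**
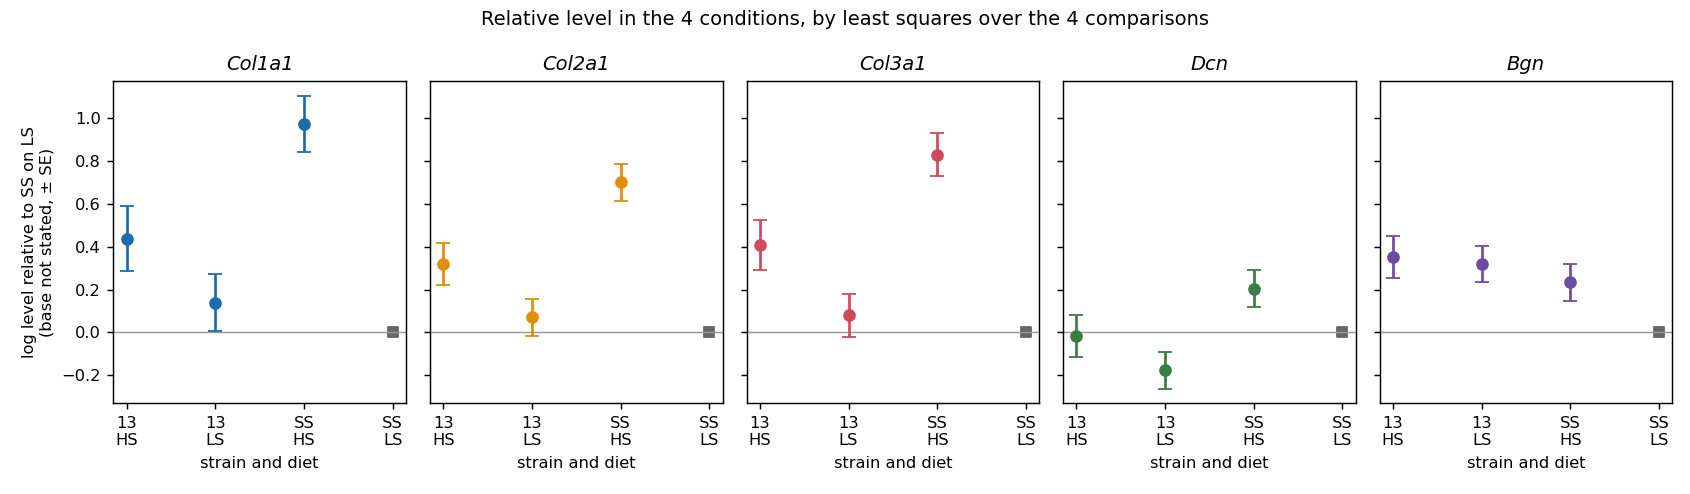
Level of each gene in strain 13 on HS and on LS and in SS on HS, relative to SS on LS (grey square at 0), by least squares over the 4 comparison means (vertical axis in log units, base not stated, bars ± SE). The 3 collagens peak in SS on HS, at 0.97, 0.70 and 0.83, and biglycan is lowest in SS on LS.

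Across the 12 RNA pairs the 3 collagens moved together. Their pairwise Pearson correlations were 0.96 for Col1a1 with Col2a1 and 0.97 for the other pairs of them. After removing the mean of each comparison the correlations were between 0.73 and 0.82. Decorin correlated at 0.81 with Col3a1 and at 0.67 and 0.69 with Col1a1 and Col2a1, and after removing the comparison means at 0.69 with Col3a1, 0.25 with Col1a1 and 0.22 with Col2a1. Biglycan correlated at 0.30 to 0.40 with the collagens and at 0.02 with decorin, and after removing the comparison means at 0.67 to 0.75 with the collagens. These are descriptions over pairs that can share RNAs and whose arrays were processed alike. Fibrillar collagen genes resemble each other in the region that encodes the triple helix, and how far the Col2a1 probe also binds other collagen transcripts was not tested. Of the 12 cartilage and bone markers listed, 0 had a value on the arrays.

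Among the 1001 other probes with a value in all 12 pairs, those most like the mean of the 5 members were Tagln, which binds actin in smooth muscle (r = 0.98), Mgp, a matrix inhibitor of calcification (0.98), Timp1, an inhibitor of matrix metalloproteinases (0.97), and Vim, the filament of mesenchymal cells (0.97). The list of the 10 most alike went on with Tspan8 (0.95), Csnk2b (0.93), Clu (0.93), Tnnt2 (0.91), Ceacam4 (0.91) and Gucy1a1 (0.90), where the median over all these probes was -0.06. Taken singly, Col1a1 was most like Mgp (0.97), Col2a1 most like Col3a1 (0.97) and Col3a1 most like Tagln (0.98). Decorin was most like Tcp1 (0.95) and Spink1l (0.94), and biglycan most like Arf5 (0.90) and Plec (0.88).

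The other genes of the matrix were taken from 5 lists, of which 47 of 143 genes were measured. In strain 13 on HS against LS 0 of 42 tested passed (median 0.03), where 0% of all probes did. The absence of calls there is common to all genes. In SS 3 rose, 0 fell and 39 did not pass (median 0.12, with 29 above 0), beside 1.83% of all probes called as higher. The 3 were Timp1 (0.91 ± 0.26), Mgp (0.61 ± 0.21) and Spp1, the matrix protein osteopontin (0.40 ± 0.09). Of 24 further collagens 1 was measured, Col5a2, a chain that regulates fibril width, with -0.075, 0.385 and 0.95 in the 3 replicates of SS (0.42 ± 0.51, limma adjusted p = 0.238).

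Genes that make collagen did not pass in the diet comparisons. In SS, Serpinh1, the collagen chaperone HSP47, had 0.36 ± 0.16 (limma adjusted p = 0.0502), Pcolce, an enhancer of procollagen cleavage, 0.33 ± 0.18, Sparc, a collagen-binding matrix protein, 0.17 ± 0.06, and Pdia3, a disulfide isomerase, -0.23 ± 0.25. Serpinh1 had -0.09 ± 0.15 in strain 13. On HS, P4ha1, a subunit of the prolyl hydroxylase that stabilises the triple helix, was higher in 13 than in SS (0.37 ± 0.16, limma adjusted p = 0.0281), the opposite sign to the collagens. It was the 1 of 7 genes of this list to pass there.

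Among the 8 further proteoglycans tested in SS 0 passed (median 0.02). Lum, the related proteoglycan lumican, had 0.11 ± 0.215, Sdc1 and Sdc2, the cell-surface syndecans, 0.19 (2 replicates) and -0.18 ± 0.06, and Agrn, of basement membranes, 0.16 ± 0.25. Of the matrix glycoproteins, elastin (Eln) had 0.61 ± 0.45 and fibronectin (Fn1) -0.29 ± 0.54, neither past the test. Among genes of matrix turnover, Mmp2, a gelatinase, had 0.695 ± 0.50 (limma adjusted p = 0.0583), Mmp23 0.585 in 2 replicates (0.0502) and Mmp14, which activates Mmp2, 0.31 ± 0.20. On HS, 3 of the 44 matrix genes tested were higher in 13 than in SS, P4ha1, Pdgfa (a mitogen of mesenchymal cells, 0.34 ± 0.07) and Igf1 (0.38 ± 0.21), and 3 were lower, Spp1 (-0.37 ± 0.11), Mgp (-0.43 ± 0.23) and Ctsl, a lysosomal protease (-0.385 ± 0.09).

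**Figure D5:**
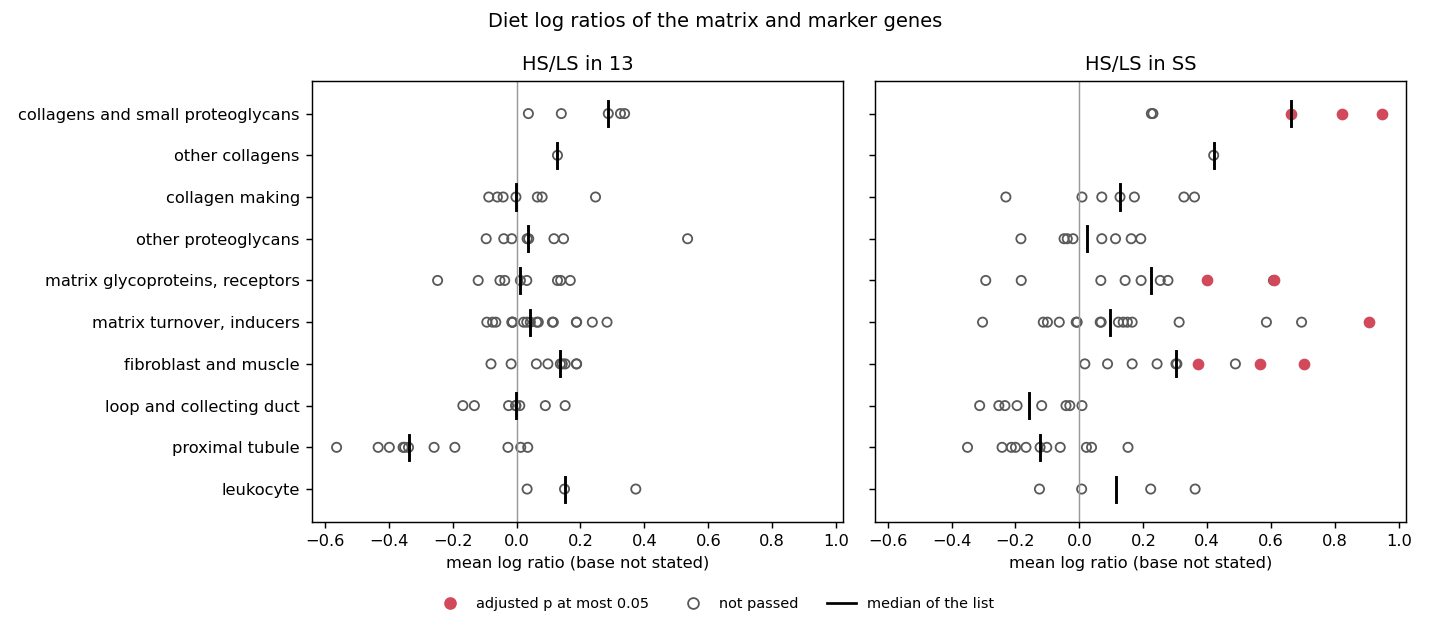
Mean log ratio of HS over LS (horizontal axis, base not stated) in strain 13 (left) and in SS (right) for the genes of each list, with filled points for genes past limma's adjusted p of 0.05 and a bar at the list median. In strain 13 0 genes of these lists passed, where 0% of all probes did. In SS the 3 collagens, Timp1, Mgp, Spp1, Tagln, Tnnt2 and Vim passed, beside 2.82% of all probes.

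As a mean, fibroblast and muscle markers followed the collagens over the RNA pairs, while other cell type markers ran against them or did not follow. In bulk RNA fewer cells of a type and less RNA per cell cannot be told apart. Of the 20 fibroblast and muscle markers 11 were measured. In strain 13 on HS against LS 0 of 9 tested passed (median 0.14), where 0% of all probes did. In SS 3 of 10 rose, Tagln (0.70 ± 0.35), Tnnt2 (0.565 ± 0.12) and Vim (0.37 ± 0.15), beside 1.83% of all probes called as higher. All 10 were above 0 in SS (median 0.30). Acta2, smooth muscle actin, had 0.09 ± 0.12 there. The 8 of these markers with a value in every pair averaged 0.11, 0.39 and 0.44 in the 3 replicates of SS, where the collagens averaged 0.48, 1.02 and 0.93, and their mean correlated with the collagen mean at r = 0.93 over the 12 pairs. On HS 2 of 11 tested were lower in 13 than in SS, Tnnt2 (-0.48 ± 0.04) and Vim (-0.34 ± 0.12). Actc1 was higher there (0.30 ± 0.02, limma adjusted p = 0.0236), the opposite sign to the collagens, with 0.02 ± 0.01 in the SS diet comparison. For the difference of diet responses 1 of 9 passed, Tnnt2 (-0.46, limma adjusted p = 0.05).

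Markers of the loop of Henle, distal tubule and collecting duct ran the other way. The mean of the 8 measured of 18 correlated with the collagen mean at r = -0.94 over the 12 pairs. In SS it was -0.10, -0.16 and -0.18 in the 3 replicates, with 0 of 8 past the test. On HS 5 of 8 were higher in 13 than in SS (Fxyd4 0.495 ± 0.11, Scnn1a 0.38 ± 0.05, Aqp3 0.35 ± 0.07, Egf 0.29 ± 0.10 and Atp1b1 0.25 ± 0.065), and their mean was 0.31, 0.29 and 0.25 in the 3 replicates, where the collagens averaged -0.28, -0.715 and -0.42. The part of these markers in the collagen result was not tested.

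Proximal tubule markers, 11 of 24 measured, did not follow the collagens (r = 0.15 over the 12 pairs). In the SS diet comparison, the 10 with a value in every pair averaged 0.215 in replicate 1, where the collagens were lowest, and -0.30 in both others. On HS 2 of 10 tested were lower in 13 than in SS, Gatm (-1.025 ± 0.55) and Cyp2e1 (-0.67 ± 0.39). Of 18 leukocyte markers 6 were measured, and in SS 0 of the 4 tested passed (median 0.12). On HS 1 of 4 was lower in 13 than in SS, Lyz2, the lysozyme of myeloid cells (-1.51 ± 0.825). The single endothelial marker measured, Kdr, a receptor of VEGF, had 0.04 ± 0.06 in the SS diet comparison and was higher in 13 than in SS on HS (0.315 ± 0.12). Its correlation with the collagen mean over the 12 pairs was -0.66, that of the leukocyte mean (2 genes) 0.41 and that of the blood and fat mean (3 genes) -0.77. Of 5 blood and fat markers measured, 0 of the 4 tested passed in SS (median -0.06).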

How the data were processed

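The authors deposited 1 log ratio per probe for each of 24 two-channel cDNA arrays (Cy5 and Cy3, per the labels), with a log base that is not given in the sources used here, and the same holds for the background correction, filters and normalization. Every array had a mean within 0.0049 of 0, between 726 and 1402 probes held a value, and intensities were not used. Precision is limited by how many arrays there are. Gene symbols come from the platform's annotation, brought up to date through RefSeq (GRCr8). Of 1561 probes with a value, 1311 got a current symbol, 5 kept the platform's, 22 had several and 223 had none. For a gene of a list with several probes, the one with most values was used.

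Of the 6 SS diet arrays, 5 have a title without a strain, and 1 has a title that begins as in strain 13 but names SS in its channels; 1 strain 13 title gives no replicate number. Dye-swap values were used with the sign as deposited. Over 548 probes on all arrays the ring closed with r = 0.77 when forward and dye-swap values were added and 0.22 when they were subtracted, and over 1006 probes with r = 0.65, against -0.23 with the SS diet ratios turned (correlations across genes, which are not independent replicates). Turning all signs at once cannot be told apart.

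limma 3.58.1 (R 4.3.3, lmFit and eBayes) fitted 4 comparison means to the 12 pairs, two-sided, with Benjamini-Hochberg adjustment over all probes with at least 2 of 3 replicates, called at 0.05. The script was tested on simulated data. The fit given has no replicate block. Deviations of same-numbered pairs from their comparison means were correlated in all 3 replicates between the diet comparisons in 13 and SS (0.21, 0.15 and 0.25) and between the SS diet and the strain comparison on HS (-0.67, -0.59 and -0.29), and had no common sign in the 4 other pairs of comparisons. The numbers may therefore pair the diet comparisons with each other, though those correlations were smaller than single values elsewhere (up to 0.43). They may also pair the SS diet comparison with the strain comparison on HS, where the deviations ran in opposite directions. Whether the numbers do so was not tested. The replicate block gives all 4 comparisons 1 common shift per number, so it cannot describe deviations of opposite sign. Blocked values stand beside the results they change, and they do not account for that second possible link. Members, lists and alternatives were chosen with earlier results of these data known. Genes of the lists are named where they passed a test, with up to 4 per matrix list by size of the SS diet ratio, and the 10 probes and 3 per gene most alike.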

Additional observations from a re-analysis of the deposited data

Results flagged for a closer look

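Among the 6 arrays of decorin for 13 over SS on HS, the dye-swap array of replicate 1 had 0.16, apart from the others, which lay between -0.37 and -0.18. In the comparison of 13 with SS on LS, replicate 1's forward array had a value for 726 probes, with an SD of 0.474 over them, each apart from the other 5 arrays of its comparison. Of 28 sets of arrays examined, 20 of them for the members, chance would set about 1 in 20 apart.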

How the results depend on the processing

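Of 560 values recomputed for the members, 484 kept direction and side of the threshold, 26 lost a call, 37 gained one and 13 turned sign. Some settings changed only arrays of another comparison, the other probes or the estimate of the spread, and left a member's mean as it was. The share that was kept therefore overstates how firm the results are. The collagen means in SS stayed above 0 throughout (0.80 to 1.19 for Col1a1, 0.59 to 0.73 for Col2a1 and 0.72 to 1.01 for Col3a1). Values that turned sign were near 0, each of a gene that did not pass in the comparison concerned. On dye-swap arrays alone biglycan had -0.06 for the strains on HS and -0.067 for the diet in 13, Col3a1 -0.053 for the strains on LS, and decorin 0.028 for the difference of diet responses. Biglycan in 13 had -0.027 without the diet array that lacks a replicate number. Leaving out replicates, biglycan ranged from -0.003 to 0.20 on HS (-0.002 without replicate 1 of that comparison alone) and from -0.038 to 0.075 for the diet in 13 (-0.037 without replicate 2 of that comparison alone), and decorin from -0.21 to 0.071 for the difference (0.009, 0.008 and 0.007 among them).

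Counts of called probes moved more. For the diet in SS (37) they were 127 with a dye term (added after seeing the data), 118 with arrays as observations, 61 with both orientations, 118 on forward and 62 on dye-swap arrays, 0 fitted alone, 58 for probes in all pairs and 60 without the array of conflicting title, and 0 to 134 leaving out replicates (57 without replicate 1 of this comparison alone). For strains on HS (81; 49 higher, 32 lower) they were 188 with a dye term and also with arrays as observations, 20 with equal spread (15 higher, 5 lower), 127 on forward and 411 on dye-swap arrays, 0 fitted alone, 40 with the replicate block, and 0 to 27 leaving out replicates. For strains on LS (0) they were 63, 67, 3 with both orientations, 20 with equal spread (4 higher, 16 lower), 70 forward, 51 dye-swap, 35 for probes in all pairs and 0 to 1 leaving out replicates. For the diet in 13 (0) they were 7, 9, 15 forward, 3 dye-swap and 0 to 1. For the difference (5; 3 higher, 2 lower) they were 46, 63, 29, 2 with equal spread (both higher), 4 with arrays centred on the median (3 higher, 1 lower), 13 forward, 12 dye-swap, 0 on diet arrays, strain arrays or fitted alone, 39 for probes in all pairs, 8 with the replicate block, 12 without the conflicting array, 2 without the sparse or unnumbered array, and 0 to 13 leaving out replicates. Beyond Col2a1 on HS, the block changed no member's call. The cause of these changes was not tested. Leaving out 1 pair of 1 comparison was also added after seeing the data.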
